A study of Mus musculus with 12 samples.

Results

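This report describes 9 CpG sites of the mouse genome (mm9) at which methylation differed between oral tissue of DBP-treated and DMSO-treated mice, each named after a gene on which or near which it was placed: Smyd2, Hopx, Barhl2, Lrp4, Tln1, Fcgr3, Ermap, Rgs8 and Cep350. They were chosen from the 59 CpGs that passed a q-value under 0.01 and a difference over 10 percentage points in that comparison, out of 53618 CpGs tested. The values that chose them are therefore given as a description, and no test on the same samples is offered as support for them. Directions are DBP minus DMSO, from the deposited counts of methylated and unmethylated reads and with the groups as GEO's labels name them.

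Female B6C3F1/J mice, 8 weeks old, a first-generation hybrid whose reads were aligned to 1 reference genome so that the parental alleles cannot be told apart, formed 4 groups of 3 samples. The DMSO group received the vehicle in the oral cavity. The DBP group received dibenzo[def,p]chrysene, a tobacco smoke carcinogen also called dibenzo[a,l]pyrene, topically, with 3 doses of 24 nmol a week over 5 weeks, and tissue was taken 48 h after the last dose. The other groups carried the same DBP treatment together with an unnamed chemopreventive agent (DBP+agent), or with a chemopreventive agent given as BR extract (DBP+BR extract), for which neither dose, route nor timing is given in the sources used here, and no group received either preparation without DBP. Buccal mucosa, floor of the mouth and the soft tissue on the hard palate were combined for DNA extraction. A shift in the mixture of cell types and a change of methylation within a cell type cannot be told apart in such bulk DNA.

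In mammals, methyl groups are placed on the cytosine of a CpG by DNA methyltransferases and are lost through TET enzymes or through replication without maintenance. Most CpGs outside promoters are methylated, whereas CpG islands at gene starts are mostly free of methylation. Methylation near a start usually goes with a silent gene, and the meaning of a single CpG within a gene body or between genes is less settled.

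The assay, enhanced reduced representation bisulfite sequencing (ERRBS), reads 50 bases inward from the cut sites of the enzyme MspI (CCGG) and counts, at each CpG, reads that kept a cytosine (methylated) and reads that show thymine (unmethylated). All 9 sites were read on 1 strand, so that each value rests on reads starting at a single cut. These reference stretches show where each site lies in its read. The sequences come from the NCBIM37 (mm9) reference, 5′ to 3′ on the strand that was read, with the CG of the site and, where it is shown, the CCGG at which the read starts in capitals. At Fcgr3 and Barhl2 the site is the CG within the CCGG itself.
Smyd2 (chr1:191697643-191697672, minus strand): gaaggacacagaagCGaggtgaaggccagt
Hopx (chr5:77565589-77565638, minus strand): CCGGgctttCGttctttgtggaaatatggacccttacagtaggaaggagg
Barhl2 (chr5:106882426-106882475, plus strand): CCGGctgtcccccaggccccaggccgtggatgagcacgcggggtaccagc
Lrp4 (chr2:91297293-91297342, plus strand): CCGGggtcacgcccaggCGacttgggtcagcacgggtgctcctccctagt
Tln1 (chr4:43556372-43556421, plus strand): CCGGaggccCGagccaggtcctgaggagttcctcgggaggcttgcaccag
Fcgr3 (chr1:173011858-173011907, minus strand): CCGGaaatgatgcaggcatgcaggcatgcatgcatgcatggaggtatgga
Ermap (chr4:118863448-118863497, minus strand): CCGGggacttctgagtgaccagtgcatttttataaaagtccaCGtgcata
Rgs8 (chr1:155500235-155500264, minus strand): aaagagctagcgagCGcaggggagggagcg
Cep350 (chr1:157766112-157766161, plus strand): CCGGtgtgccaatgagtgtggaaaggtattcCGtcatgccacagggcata
The site was base 1 of its read at Fcgr3 and Barhl2, base 9 at Tln1 and Hopx, base 17 at Lrp4, base 31 at Cep350, base 35 at Smyd2, base 40 at Rgs8 and base 42 at Ermap. The sites near the end of the read are thus those of Ermap and Rgs8.

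Depth differed between the groups. The DMSO and DBP samples held 3287367 to 7974299 CpG calls each, the DBP+agent samples 16908728 to 39615620 and the DBP+BR extract samples 17712547 to 78889043. The deepest sample, DBP+BR extract sample 1, held few reads at these sites: its median over the 9 sites was 25 reads, against 20 to 114 in the other samples. The precision followed the reads at the site. The 95% Wilson interval of a single sample's value spanned 26.7 points at the median in DMSO, 18.3 in DBP, 8.67 in DBP+agent and 10.4 in DBP+BR extract, and these intervals cover counting error only, since the reads carry no molecular identifiers and PCR copies count repeatedly. The labels do not say whether the samples of a group came from separate animals, so SDs measure the spread between these samples only. The p-values and q-values by logistic regression pool the reads of a group and do not measure that spread.

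**Figure D1:**
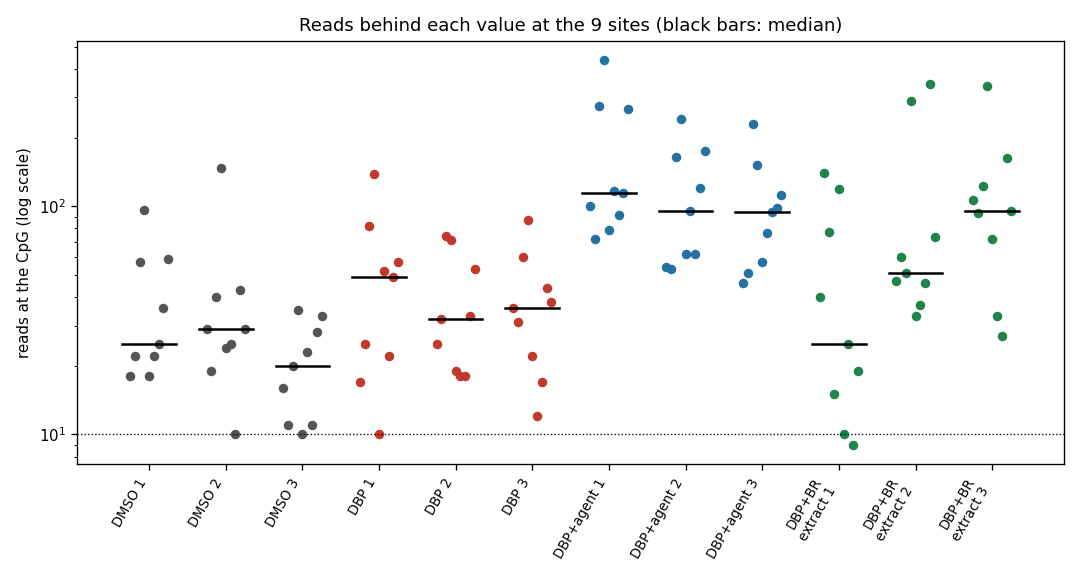
Reads at each of the 9 sites (points, log scale) in each of the 12 samples (horizontal axis), with the median as a black bar and the minimum of 10 reads as a dotted line. The DBP+agent samples have medians of 94 to 114 reads and DBP+BR extract samples 2 and 3 medians of 51 and 95, whereas DBP+BR extract sample 1 has a median of 25 reads, close to the DMSO samples.

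In the DBP group 3 sites (Hopx, Ermap, Cep350) lay higher than in DMSO, where 0.0466% of tested CpGs were called higher, and 6 (Smyd2, Barhl2, Lrp4, Tln1, Fcgr3, Rgs8) lay lower, where 0.0634% were called lower. The choice of sites fixed these directions. All 9 passed both thresholds, as did 0.11% of all tested CpGs, and at all 9 the samples of the groups did not overlap, which held for 5.46% of tested CpGs. The q-values that chose them ran from 0.000776 at Tln1 to 0.0075 at Barhl2, and the first CpG outside the threshold with a difference over 10 points, on chromosome 5, had 23.3 points and q = 0.0106. The differences between the groups' pooled percentages ran from 14.8 points lower at Rgs8 to 43.3 points higher at Ermap.

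**Figure D2:**
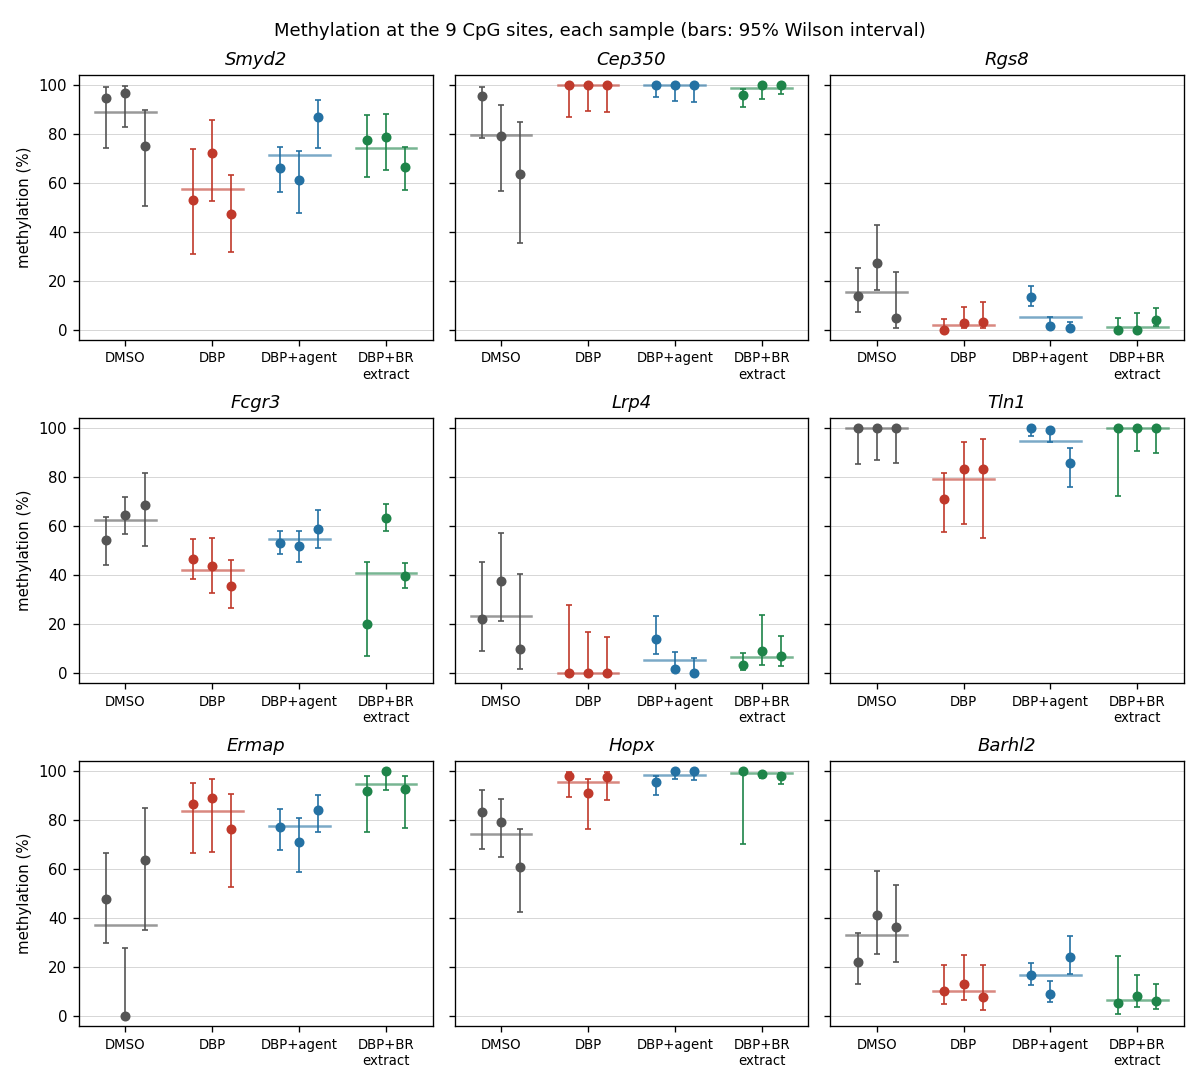
Methylation (percent of reads methylated, vertical axis) at the 9 sites in the 4 groups (horizontal axis), with a point for each sample, its 95% Wilson interval as a bar and the mean of the 3 samples as a line. At Cep350, Ermap and Hopx all 6 samples that received DBP with the agent or the BR extract lie above the DMSO samples, whereas at Tln1 the 3 DBP samples lie below those of DMSO and DBP+BR extract, which are all at 100%.

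The first set of sites is named after genes whose proteins act in the nucleus. Smyd2 encodes a lysine methyltransferase that acts on histones and on other proteins such as p53. By GENCODE vM1 its site, chr1:191697657-191697658, lay 6714 bp past the end of Smyd2 (minus strand, 191704371 to 191746242) and inside an untranslated exon of Ptpn14, which encodes a protein tyrosine phosphatase. The DMSO samples were methylated at 94.4%, 96.6% and 75.0% and the DBP samples at 52.9%, 72.0% and 47.2%, or 88.7% ± 11.9 against 57.4% ± 13.0 (SD, n = 3 each). The DBP+agent samples read 66.0%, 61.1% and 87.0% and the DBP+BR extract samples 77.5%, 78.7% and 66.4%. Both of these groups thus spanned the gap between the DMSO and DBP samples, with means of 71.4% ± 13.7 and 74.2% ± 6.82.

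Hopx encodes an atypical homeodomain protein that does not bind DNA and works through partners such as histone deacetylases. Its site, chr5:77565628-77565629, lay between genes, 21442 bp before the start of Hopx and 14255 bp before the nearest protein-coding start, that of Gm15831. The DMSO samples read 83.3%, 79.1% and 60.7%, and the DBP samples 98.0%, 90.9% and 97.7%, or 74.4% ± 12.0 against 95.5% ± 4.01 (SD, n = 3 each). All 3 DBP+agent samples (95.6%, 100% and 100%) and all 3 DBP+BR extract samples (100%, 98.8% and 98.1%) lay above the highest DMSO sample. The value of 100% in DBP+BR extract sample 1 rests on 9 reads.

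Barhl2 encodes a homeobox transcription factor of the developing nervous system. Its site, chr5:106882427-106882428, lay in a coding exon of Barhl2, 894 bp before the end of the gene. Methylation was low in every group. The DMSO samples read 22.03%, 41.4% and 36.4% and the DBP samples 10.5%, 13.2% and 7.89%, or 33.3% ± 10.04 against 10.5% ± 2.66 (SD, n = 3 each). With the agent the samples read 16.9%, 9.20% and 24.1%, of which the last lay within the DMSO range, and the DBP+BR extract samples read 5.26%, 8.22% and 6.32%, around or below the DBP samples.

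The second set is named after genes for receptors, membrane proteins and an adhesion protein. Lrp4 encodes the receptor for agrin, through which the kinase MuSK builds the neuromuscular junction, and a regulator of Wnt signalling. Its site, chr2:91297310-91297311, lay 358 bp before the start of Lrp4. The DMSO samples had 4 of 18, 9 of 24 and 1 of 10 reads methylated (22.2%, 37.5% and 10%), and the DBP samples had 0 of 10, 0 of 19 and 0 of 22. A count of 0 allows a share of up to 3 reads of the total, which is 30%, 15.8% and 13.6% in these 3 samples, so the lowest DMSO sample is not separated from them by counting error. With the agent they read 13.9%, 1.61% and 0%, and the DBP+BR extract samples 3.36%, 9.09% and 6.94%. The DMSO mean was 23.2% ± 13.8, and the means with the agent and the BR extract were 5.18% ± 7.62 and 6.47% ± 2.89 (SD, n = 3 each).

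Tln1 encodes talin, which couples integrins to the actin cytoskeleton. Its site, chr4:43556381-43556382, lay in a coding exon. All 70 DMSO reads were methylated (22, 25 and 23 reads per sample). The DBP samples read 71.2%, 83.3% and 83.3%, or 79.3% ± 7.03 (SD, n = 3). All 80 DBP+BR extract reads were methylated, as in DMSO, although only 10 of them came from sample 1. Those of DBP+agent read 100%, 98.9% and 85.5%, so all 3 lay above the highest DBP sample. Of the 6 samples with the agent or the BR extract, 1 lay nearer to the DBP mean than to the DMSO mean, the smallest such number at any of the 9 sites.

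Fcgr3 encodes a low-affinity activating receptor for IgG found on natural killer cells and macrophages. Its site, chr1:173011905-173011906, lay between genes, 16839 bp before the start of Fcgr3. The DMSO samples read 54.2%, 64.6% and 68.6% and the DBP samples 46.4%, 43.7% and 35.6%, or 62.5% ± 7.44 against 41.9% ± 5.59 (SD, n = 3 each). The DBP+agent samples (53.2%, 51.7% and 58.9%) all lay above the DBP samples. The DBP+BR extract samples spread from 20% (3 of 15 reads, sample 1) to 63.4% (184 of 290 reads), a wider range than that of all DMSO and DBP samples together.

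Ermap encodes a butyrophilin-like membrane protein of red blood cells. Its site, chr4:118863454-118863455, lay 838 bp before the start of Ermap. The DMSO samples differed widely, with 12 of 25, 0 of 10 and 7 of 11 reads methylated (48.0%, 0% and 63.6%), a mean of 37.2% ± 33.2. The count of 0 in 10 reads allows up to 30% by the same limit of 3 reads, below the other 2 values. The DBP samples read 86.4%, 88.9% and 76.5%, the DBP+agent samples 77.2%, 70.97% and 84.0% and the DBP+BR extract samples 92.0%, 100% and 92.6%. All 9 DBP-treated samples lay above the highest DMSO sample, and those with the BR extract lay highest, at 94.9% ± 4.46 (SD, n = 3).

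The last set holds a signalling and a centrosome gene. Rgs8 encodes a protein that speeds the shut-off of heterotrimeric G proteins, known mostly from neurons. Its site, chr1:155500249-155500250, lay in an untranslated exon, 94 bp past the start of Rgs8. The DMSO samples read 14.04%, 27.5% and 5.00% and the DBP samples 0%, 2.70% and 3.33%, or 15.5% ± 11.3 against 2.01% ± 1.77 (SD, n = 3 each). In the DBP+agent group sample 1 stood at 13.4% (37 of 276 reads), within the DMSO range, whereas the other 2 samples were at 1.82% and 0.870%. The DBP+BR extract samples read 0%, 0% and 4.07%. At Lrp4 the same agent sample was also the highest of its group, and over the 12 samples the levels at Rgs8 and Lrp4 ran together with a Pearson r of 0.941, given as a description since the DMSO and DBP samples chose both sites.

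Cep350 encodes a large protein of the centrosome that anchors microtubules. Its site, chr1:157766143-157766144, lay in an intron. The DMSO samples read 95.5%, 78.9% and 63.6%, the last from 7 of 11 reads, with a mean of 79.3% ± 15.9 (SD, n = 3). All 88 reads of the DBP samples and all 176 reads of the DBP+agent samples were methylated. The DBP+BR extract samples read 95.7%, 100% and 100%. Cep350 and Hopx had their lowest value in the same sample, DMSO sample 3, and their levels over the 12 samples gave a Pearson r of 0.932, again a description.

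The calls in DBP against DMSO rested on single samples to different degrees. The logistic model pools reads within a group and takes no account of spread between samples. Without DBP sample 1 no site of the 9 passed both thresholds by this model, and the count was 5 without DBP sample 2, 3 without DBP sample 3, 8 without DMSO sample 1, 2 without DMSO sample 2 and 4 without DMSO sample 3. By edgeR's quasi-likelihood test, which includes the spread between samples, 0 of the 53618 CpGs passed, and so none of the 9, while 1418 of the 53618 had an unadjusted p under 0.05. The pooled difference kept its sign at each of the 9 sites when any 1 sample was left out. Since the same samples chose the sites, these counts show on which samples the choice rested and do not test it.

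A labelled tissue cannot be checked here by expression, and markers of its cell types were sparsely covered at their starts. With at least 10 reads in all 12 samples, 2 CpGs of Krt4, a keratin of the oral epithelium, had sample means of 90.6% to 94.4% in DMSO, 74.6% to 86.9% in DBP, 73.5% to 93.3% with the agent and 77.7% to 94.97% with the BR extract. The DMSO and DBP samples did not overlap there, with DBP lower. The other 8 keratinocyte markers had no such CpG. For skeletal muscle (Des and Actn2, 18 CpGs) the ranges were 8.69% to 10.1%, 6.93% to 12.0%, 5.57% to 13.96% and 8.05% to 14.5% in the same order of groups. For leukocytes (Coro1a, 10 CpGs) they were 29.1% to 37.3%, 30.9% to 40.4%, 30.3% to 36.4% and 29.2% to 47.2%. For fibroblasts (Pdgfra, 7 CpGs) DMSO lay at 5.71% to 8.70% and DBP at 1.504% to 5.49%, without overlap. Of all single CpGs tested, 5.46% did not overlap between DMSO and DBP. By logistic regression 0 of 6 tested Pdgfra CpGs and 0 of 5 Krt4 CpGs passed both thresholds. The median difference was 0 at Pdgfra and 2.94 points lower in DBP at Krt4. No endothelial marker was measured. Their part in the levels at the 9 sites was not tested.

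CpGs close to the sites were compared next, with before and after meaning lower and higher plus-strand coordinates. Of 235 other CpGs within 500 bp in the reference, 136 had a read in any sample, 17 had at least 10 reads in all 6 DMSO and DBP samples, and 16 in all 12. By logistic regression 0 of the 17 passed both DBP against DMSO thresholds, as 0.11% of all tested CpGs did, and 4 had an unadjusted p under 0.05, as 10.8% of all tested CpGs did. edgeR called 0. In 9 of them the difference had the sign of the site, in 2 the group means were equal, and in 1 the samples did not overlap. For 8 of the 17 the summed number of reads differed by under 5% from that of the site, so that they were largely read on the same molecules. No neighbour of Fcgr3 or Ermap reached the minimum.

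**Figure D3:**
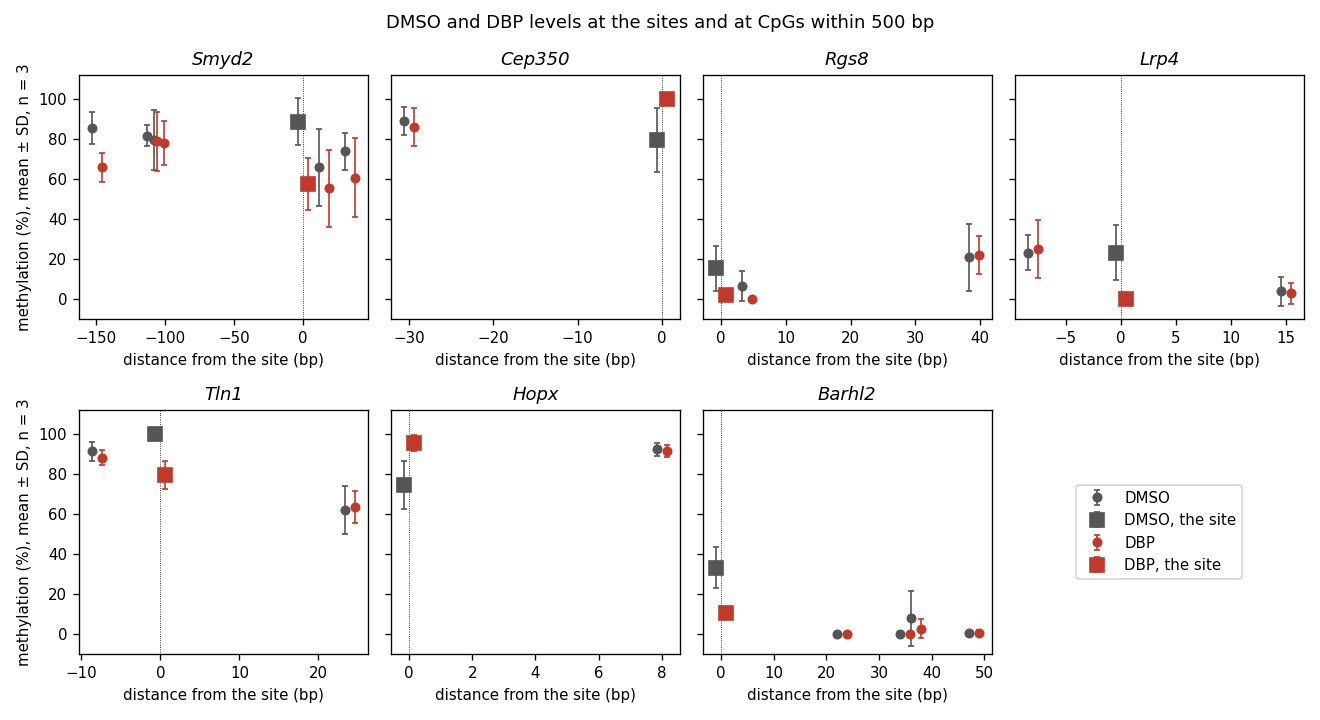
Methylation (mean ± SD of 3 samples, percent) in DMSO and DBP at the site (squares, at 0) and at CpGs within 500 bp with at least 10 reads in the 6 samples (circles), against the distance from the site in bp, with the groups drawn slightly apart for legibility. At Lrp4, Tln1, Cep350 and Hopx the nearest CpGs lie at similar levels in both groups, whereas all 5 neighbours of the Smyd2 site lie lower in DBP.

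Around most sites the neighbours stayed close together in the groups. At Lrp4 the CpG 8 bp before the site, on the same reads, stood at 23.3% ± 8.82 in DMSO and 25.2% ± 14.3 in DBP, against 23.2% and 0% at the site itself, and the CpG 15 bp after it stood at 4.17% ± 7.22 and 3.03% ± 5.25. At Tln1 the CpG 8 bp before the site stood at 91.2% ± 4.82 in DMSO and 88.0% ± 3.73 in DBP. The CpG 24 bp after it stood at 61.9% ± 12.1 and 63.4% ± 7.80 (SD, n = 3 each). At Lrp4 and at Tln1 the CpG after the site thus stood well below the CpG before it in both groups, on largely the same reads.

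At Hopx the CpG 8 bp after the site stood at 92.3% ± 3.24 in DMSO and 91.4% ± 2.81 in DBP. At Cep350 the CpG 30 bp before the site stood at 88.9% ± 7.12 and 85.8% ± 9.43, with the sign opposite to that of the site. At Rgs8 the CpG 4 bp after the site, largely on the same reads, read 0%, 15% and 5.00% in DMSO and 0% in all 3 DBP samples. It was 5.79 points lower in DBP by pooled percentages, with q = 0.0268 by logistic regression, the lowest of the 17 neighbours. The CpG 39 bp after the site stood at 20.9% ± 16.5 and 22.3% ± 9.51. The Barhl2 neighbours, at 23, 35, 37 and 48 bp, were close to unmethylated, with means of at most 7.89% in DMSO and 2.72% in DBP.

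The stretch around the Smyd2 site, in the untranslated exon of Ptpn14, held the largest differences of group means. Its 5 neighbours all stood lower in DBP, by 1.80 to 19.7 points. The largest of these differences was at the CpG 149 bp before the site, where the DMSO samples read 94.1%, 83.9% and 78.6% and the DBP samples 71.4%, 68.4% and 57.7%, without overlap. At 15 bp after the site the means were 65.8% ± 19.1 and 55.3% ± 19.1 (SD, n = 3 each), and at 34 bp after it 73.8% ± 9.32 and 60.6% ± 19.7, with overlap in both. The q-values of these 3 neighbours were 0.265, 0.51 and 0.432.

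The groups that received the agent or the BR extract share no sample with the choice of sites, but any comparison of them with DMSO or DBP does, so their positions are given as levels. At Cep350, Ermap and Hopx, the 3 sites that were higher in DBP, all 6 samples lay past the DMSO range on the DBP side. Over the 9 sites, 42 of 54 values lay past the DMSO range on that side and 40 of 54 lay nearer to the DBP mean. The samples that set this range and mean also chose the sites, and the 54 values are not independent observations. No share over all tested CpGs is available beside these counts, so they are a description only. The DBP+agent samples did not overlap with DMSO at 3 of the 9 sites (6.3% of tested CpGs did not overlap), and the DBP+BR extract samples at 6 (6.57%). Against DBP, the samples did not overlap at 2 sites with the agent, Fcgr3 and Tln1, and at 4 with the BR extract, Tln1, Lrp4, Ermap and Hopx, in every case on the higher side (3.24% and 2.72% of tested CpGs). Except for Ermap and Hopx this is the DMSO side. At Hopx the lowest DBP+BR extract sample (98.15%) was close to the highest DBP sample (97.96%). At Lrp4 the DBP+BR extract samples (3.36% to 9.09%) lay below the 13.6% to 30% that the counts of 0 in DBP allow. These comparisons share their DMSO or DBP samples, and the shallow DMSO samples had to differ from DBP for a site to be chosen.

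The agent and the BR extract were compared directly, which is independent of the choice of sites. Of 205096 tested CpGs, 11.3% passed both thresholds and 5.47% did not overlap between the groups. Of the 9 sites 7 were tested, since at Fcgr3 the read number exceeded the upper limit and at Hopx DBP+BR extract sample 1 held 9 reads. Ermap alone passed both thresholds. It stood at 77.4% ± 6.54 with the agent and 94.9% ± 4.46 with the BR extract (SD, n = 3 each), 17.8 points lower in pooled percentages, with q = 2.58e-07 by logistic regression. The samples did not overlap, and the two-sided exact permutation p was 0.1, the smallest that 3 against 3 allows. By edgeR's quasi-likelihood test the unadjusted p was 0.0529 and the adjusted p was 1, and without DBP+BR extract sample 2 the logistic q rose to 0.0184, so that the call was lost.

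Barhl2 was the other site without overlap. It was higher with the agent, 16.7% ± 7.46 against 6.60% ± 1.498 (SD, n = 3 each), and the pooled difference of 9.12 points (q = 0.000271) fell short of 10 points. Without DBP+agent sample 2 the difference was 12.5 points. Tln1 was 5.08 points lower with the agent (q = 0.00359) with overlapping samples, Rgs8 3.26 points higher (q = 0.0239) and Cep350 1.48 points higher (q = 0.048). At Smyd2 and Lrp4 the groups differed by 0.603 and 0.908 points, lower with the agent, with q of 1 and 0.952. These p-values do not show that the preparations acted alike. The samples spanned 61.1% to 87.0% at Smyd2 with the agent, and leaving out 1 sample moved the difference there between 7.44 points lower and 3.04 points higher.

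Among the 16 neighbours tested between the agent and the BR extract, 3 passed both thresholds, beside 11.3% of all tested CpGs. The Smyd2 neighbour 149 bp before the site was lower with the agent (70.9% ± 15.8 against 92.9% ± 8.32, q = 1.56e-06). The Cep350 neighbour 30 bp before the site was higher (98.2% ± 3.16 against 85.8% ± 10.8, q = 4.82e-07), and so was the Tln1 neighbour 24 bp after the site (82.7% ± 11.4 against 66.0% ± 9.40, q = 5.28e-05; SD, n = 3 each). At Smyd2 the agent samples read 81.4%, 78.5% and 52.8% and the BR extract samples 100%, 83.8% and 95%, without overlap. At the Tln1 neighbour the agent samples read 83.6%, 70.8% and 93.5% and the BR extract samples 70.0%, 55.3% and 72.7%, with overlap.

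The starts of the 9 genes were then examined with the sites themselves left out. Of those sites, Lrp4, Ermap and Rgs8 lay within 1000 bp of a start. In DBP against DMSO, 17 CpGs within 1000 bp of 4 of their starts were tested. By logistic regression 0 passed both thresholds, where 0.0654% of all CpGs near protein-coding starts did, and 2 had an unadjusted p under 0.05 (10.8% of all tested CpGs), while edgeR called 0. The largest difference was at a CpG 118 bp after the start of Hopx, where the DMSO samples read 52.6%, 37.5% and 16.7% and the DBP samples 68.8%, 60% and 60%, on 10 to 24 reads each. There the samples did not overlap and DBP lay higher, as at the distant Hopx site, with q = 0.153 for 29.1 points. At 4 of the starts, CpGs reached 10 reads in each of the 12 samples. The mean over 5 such CpGs near the Lrp4 start was 12.3% ± 7.51 in DMSO, 12.2% ± 2.86 in DBP, 9.37% ± 3.51 with the agent and 8.38% ± 4.71 with the BR extract. Over 4 CpGs near the Hopx start it was 29.1% ± 9.05, 28.1% ± 17.0, 22.3% ± 10.9 and 23.9% ± 15.9 (SD, n = 3 each). The groups overlapped at both starts. Near the Cep350 start both CpGs were at 0% in all DMSO and DBP samples.

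**Figure D4:**
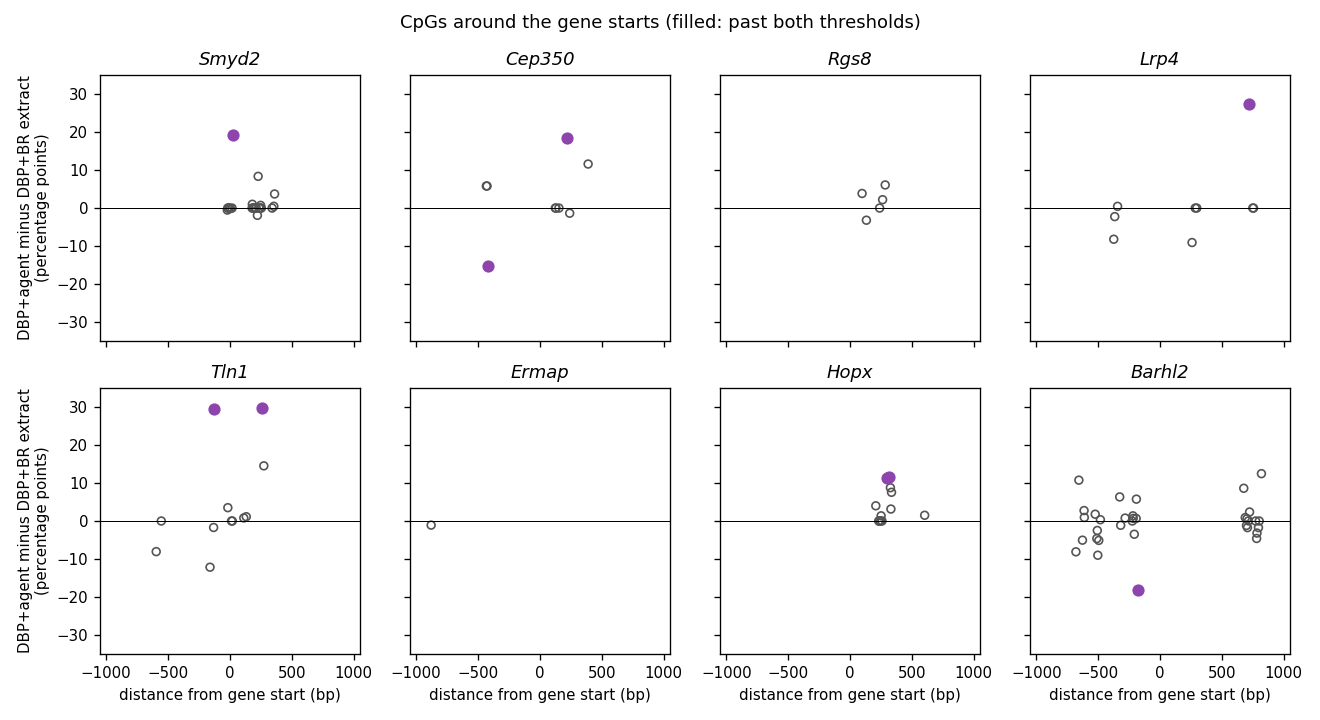
Difference between DBP+agent and DBP+BR extract (percentage points of pooled methylation, vertical axis) for CpGs within 1000 bp of a start of the gene, against the distance from that start in bp. The 9 sites are left out, and filled points passed both thresholds. Of the 9 filled points 7 lie above 0, the highest at Tln1 (29.6 and 29.4 points) and Lrp4 (27.2 points).

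Between the agent and the BR extract, 109 CpGs near 8 of the 9 starts were tested and 9 of them, near 6 genes, passed both thresholds (8.26%, beside 7.15% of all CpGs near protein-coding starts). Higher levels with the agent were found at 7 and lower levels at 2, and at 2 of the 9 the samples did not overlap. At Tln1 the CpG 126 bp before the start read 55.2%, 72.1% and 55.3% with the agent and 28.3%, 36.7% and 29.8% with the BR extract (q = 2.4e-19), on 79 to 145 reads per sample. At Lrp4 the CpG 720 bp after a start read 38.1%, 32.1% and 59.5% with the agent and 21.1%, 7.69% and 19.2% with the BR extract (q = 1.59e-06). These are the CpGs without overlap. By edgeR's quasi-likelihood test their unadjusted p was 0.11 and 0.141, and the adjusted p of all 9 was 1.

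The other 7 CpGs overlapped between the groups. They lay at Tln1 (260 bp after a start, 29.6 points higher with the agent), at Smyd2 (29 bp after, 19.2 points higher) and at Cep350 (223 bp after, 18.5 points higher, and 421 bp before, 15.3 points lower). The Barhl2 CpG, 177 bp before a start, was 18.2 points lower with the agent in pooled percentages. At Hopx the CpGs 315 and 301 bp after the start were 11.6 and 11.3 points higher in pooled percentages, while the means of the 3 samples were 15.6% and 15.7% at the former, because DBP+BR extract sample 1 stood at 39.3% on 28 reads and the deeper samples 2 and 3 at 1.69% and 6.19%. The call at these Hopx CpGs therefore rests on the weight of reads.

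Families and partners of the 9 genes were followed at their own starts, with the 9 sites left out. In DBP against DMSO 0 of 114 CpGs of the families passed both thresholds by logistic regression (0.0654% of all CpGs near protein-coding starts) and 15 had an unadjusted p under 0.05 (10.8% of all tested CpGs), while edgeR called 0. The Lrp4, Ermap and Rgs8 sites, which passed, lay near such starts and were left out. The 0 is therefore no result about the families. The measured numbers were 35 CpGs of 6 RGS proteins, 23 of 5 talin and integrin adhesion genes, 19 of 5 centrosome and centriole genes, 15 of 2 BAR-class homeobox genes, 11 of 2 HOPX partners including Hopx, 8 of 3 genes of the agrin, LRP4, MuSK and Wnt co-receptor group and 3 of 1 SMYD lysine methyltransferase. Besides the Ermap site, no CpG of the Fc gamma receptor or butyrophilin lists was measured there. The median difference was within 1.32 points of 0 in every list except the HOPX list, where it was 4.47 points higher in DBP, and it was 0 over all tested CpGs. The members with the largest median in a list were Lims1 (1 CpG, 9.38 points lower in DBP), Lrp5 (2 CpGs, 6.89 points higher), Rgs3 (1 CpG, 5.05 points lower), Nkx2-1 (3 CpGs, 4.47 points higher), Barhl1 (6 CpGs, 4.13 points higher) and Cep63 (4 CpGs, 4.10 points lower), and Smyd4 was the only SMYD gene measured.

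Between the agent and the BR extract, the talin and integrin adhesion genes had 12 of 137 CpGs past both thresholds (8.76%). This is near the 7.15% of all CpGs near protein-coding starts, so the number called is no result about these genes. All 12 were higher with the agent, where 4.71% of all CpGs near protein-coding starts were called higher and 2.44% lower. Besides Tln1 they lay at Itgb1, a shared subunit of fibronectin and collagen receptors (22.3 and 14.1 points), and at Ilk, the integrin-linked kinase (21.6 points). These are pooled percentages. At Itgb1 the means of the 3 samples lay closer together, 31.3% ± 30.4 against 17.6% ± 12.6 and 16.3% ± 15.9 against 9.63% ± 7.87. Lims1, whose protein binds Ilk, had differences of 18.7 and 11.2 points, and Ptk2, the focal adhesion kinase gene, 18.2 points. At Lims1 the sample means lay further apart than the pooled values, 49.1% ± 5.01 against 19.6% ± 18.3 and 36.8% ± 21.9 against 15.2% ± 13.5. Rap1a, a small GTPase upstream of talin, had 16.5 points and Vcl, the vinculin gene, 15.9 points. Fermt2, a kindlin gene, had 16.4 and 13.5 points, but at the former the 16.4 points rest on the weight of reads, since the means of the 3 samples were 40.9% ± 26.1 with the agent and 40.1% ± 17.0 with the BR extract. The median over the 137 CpGs was 0, as over all tested CpGs, and the largest median of a member was that of the 1 CpG of Tln2, 10.2 points lower with the agent, which did not pass the q threshold. Markers of cell types also had calls in the same comparison. Of the skeletal muscle markers 6 of 44 CpGs were called, all 6 higher with the agent (13.6%). Of the keratinocyte markers 5 were called higher and 1 lower of 37 (16.2%). The median was 25.5 points higher over 3 CpGs of Sfn, the stratifin gene, with means of 26.4% ± 28.2 against 2.56% ± 4.44. It was 13.4 points higher over 4 CpGs of Perp, a desmosome gene, and 3.03 points higher over 3 CpGs of Krt4, with 0 called. Over 27 CpGs of Dsp the median was 0, with 1 called higher and 1 lower. The leukocyte markers had 0 called of 25, the fibroblast markers 1 lower of 17 and the endothelial markers 0 of 3. Their part in the levels at the adhesion genes was not tested.

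The shares called in the other families stand beside 7.15% of all CpGs near protein-coding starts (4.71% higher and 2.44% lower). The HOPX list had 4 of 40 CpGs called (10%), all 4 higher with the agent. They were at Gata6 (29.2 points, with sample means of 21.1% ± 22.4 against 6.94% ± 2.79), at the histone deacetylase gene Hdac2 (13.9 points) and at the Hopx CpGs described above, whose sample means were close. The agrin group had 2 higher of 34, or 5.88% (Lrp4 and Dok7, an activator of MuSK, 14.02 points). The BAR-class genes had 4 higher and 5 lower of 77 CpGs (11.7%), and the most changed CpG in each direction was at Barx2, 22.5 points lower and 24.0 points higher. The RGS proteins had 2 higher and 5 lower of 86 (8.14%), among them Rgs10 (22.3 points higher) and Rgs12 (14.5 points lower). The centrosome genes had 4 higher and 3 lower of 109 (6.42%), and the SMYD genes, with 3.85% of 52 called, had 1 higher and 1 lower. The latter, at Smyd4, was 13.9 points lower in pooled percentages, while the means of the 3 samples ran the other way, 86.4% ± 18.0 with the agent and 70.0% ± 52.0 with the BR extract. None of these calls was made by edgeR's quasi-likelihood test, which called 0 CpGs in this comparison and gave 4892 an unadjusted p under 0.05.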

How the data were processed

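ERRBS libraries were made by the authors from 50 ng of DNA (MspI fragments of 70 to 320 bp, 18 PCR cycles, single reads of 50 bp). Per the submitters' processing notes, reads were trimmed with Trim Galore 0.3.3 and aligned to mm9 with Bismark 0.10.1. The deposited files give, for each cytosine, the count of methylated and of unmethylated reads, not normalized; the deposited percent column was recomputed from these counts.

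Following the study's methods, cytosines with at least 10 reads and no more than the 99.9th percentile were kept, read numbers were brought to the level of the library with the largest median, both strands of a CpG were joined, and CpGs measured in all 6 samples of a comparison were tested by logistic regression with Benjamini-Hochberg q-values. Calls needed q under 0.01 and over 10 points between pooled percentages. Percentages per sample are from unscaled reads. Genes came from GENCODE vM1.

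The 9 sites, the gene lists and the rule for named genes (the 9 genes, their neighbours, family members with a called CpG and, for each site, the most similar CpG in another gene) were chosen with earlier results of these data known. Tests were checked on simulated data. Alternatives, with edgeR 4.0.16 in R 4.3.3 and Fisher's exact test in SciPy 1.17.1, included other tests, other read limits and leaving out each sample.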

Additional observations from a re-analysis of the deposited data

How the results depend on the processing

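Of 120 recomputed DBP minus DMSO differences at the 9 sites, 118 moved by less than the spread between samples and none changed sign. Some settings, such as the replicate block, cannot change the difference, and the sites were chosen on it, so these counts do not test it. The count of tested CpGs past both thresholds, 59 in DBP against DMSO, became 34 with a minimum of 5 reads, 25 without scaling of coverage, 17 by Fisher's exact test on pooled reads, 31 with a difference over 25 points and 313 with q under 0.05. It was 0 by the overdispersion F test and by edgeR's quasi-likelihood test, with 699 and 1418 CpGs at an unadjusted p under 0.05, and 20 (without DBP sample 1) to 126 (without DMSO sample 1) when 1 sample was left out. Of the 9 sites, 4 passed with a minimum of 5 reads, 4 with a minimum of 20 reads, where only those 4 were tested, 4 by Fisher's exact test, 3 with a difference over 25 points, 0 by the F test and by edgeR, and 0 (without DBP sample 1) to 8 (without DMSO sample 1) when 1 sample was left out.

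For the agent against the BR extract, 23124 CpGs became 10095 with a minimum of 20 reads, 14652 without scaling, 3286 with a difference over 25 points, 0 by the F test and by edgeR (8118 and 4892 at an unadjusted p under 0.05) and 24947 to 29252 when 1 sample was left out. The 1 site past both thresholds, Ermap, became 0 with a difference over 25 points, by the F test (unadjusted p 0.0333) and by edgeR, and 0 (without DBP+BR extract sample 2) to 2 (without DBP+agent sample 2, with Barhl2) when 1 sample was left out. Differences changed sign at Lrp4, 0.703 points without scaling and -5.06 to 1.90 points when 1 sample was left out, at Smyd2 (-7.44 to 3.04 points) and at Rgs8 (-0.870 to 6.50 points). With a minimum of 5 reads and no upper limit, chosen after seeing the data, all 9 sites were tested and Ermap alone passed. Fcgr3 then differed by 2.84 points (q = 0.485) and Hopx by 0.0982 points (q = 1). The causes were not tested.

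The replicate numbers showed no sign of pairing the samples. With 3 samples a group and counting error at each CpG, the correlations used here cannot exclude a pairing. Deviations of same-numbered samples from their group means correlated between -0.0229 and 0.00959, and not every sample correlated best with its own number. With the replicate number as a block, 94 CpGs and 7 of the 9 sites passed in DBP against DMSO, and 21473 CpGs and 1 site in the agent against the BR extract.

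Depth limited the DMSO and DBP values most: 10 or 11 reads stood behind several of them.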

Other observations

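For each site, the tested CpG in another gene whose level ran most like it over the 12 samples was sought among 19496 CpGs that varied by an SD of at least 5 points. The Pearson r, a description over samples that share treatment groups and depth, ran from 0.883 (Tln1, with a CpG of P4hb) to 0.963 (Cep350, with a CpG of Prrxl1). Smyd2 ran most like a CpG of Cacna1e (0.946), Rgs8 like one of Pou3f2 (0.946), Hopx like one of Zfp668 (0.936), Ermap like one of Fam161b (0.939), Fcgr3 like one of Fam113b (0.918) and Barhl2 like one of Synpo (0.898). For Lrp4 the most similar CpG was the Rgs8 site itself (0.941).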
